A study of Mus musculus with 9 samples.

Results

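The genes described here are 55 mouse genes that build ribosomes: the transcription factor gene Myc, 7 genes of RNA polymerase I and its factors, 18 genes that process the small ribosomal subunit, 8 genes of the small nucleolar ribonucleoproteins (snoRNPs), 19 genes that process the large subunit, and the 2 nucleolar chaperone genes Ncl and Npm1. They were chosen by symbol for their roles, from a table of 53342 genes, with earlier results of these data known. Each of the 55 was found in the table, and each was among the 12511 genes with enough counts to be tested. The cells were macrophages grown from the bone marrow of wild-type C57BL/6J mice, male and female, 8 to 12 weeks old, with bones of different animals kept apart. Every culture received vehicle medium, rapamycin or Torin-2 for 2 h and then homogenized mouse spinal cord at 1% w/v (10 mg/mL) for 24 h, so the controls carried the homogenate too and no culture without it was analysed here. There were 3 libraries in each of the 3 groups. No dose of either compound is given in the sources used here. The study set rapamycin beside Torin-2 in order to account for inhibition of mTOR complex 1.

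Rapamycin is an allosteric inhibitor of mTOR complex 1, and Torin-2 competes with ATP at the mTOR kinase and so inhibits both mTOR complexes. In the nucleolus, RNA polymerase I, brought to the ribosomal DNA by UBTF, selectivity factor SL1 and RRN3, transcribes the precursor of the ribosomal RNAs. snoRNPs then modify that precursor, the small subunit processome and a separate series of large subunit factors fold and cut it, and chaperones help to assemble it with ribosomal proteins. MYC bound to MAX activates many of these genes, often through the E-box CACGTG, and mTOR signalling promotes the whole pathway. The libraries were made from polyadenylated RNA, so the values are messenger RNA levels of the factors, and neither ribosomal RNA synthesis nor protein was measured.

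The libraries held 16116666 to 24044329 counts. In a principal component analysis of all tested genes the third component, with 9.69% of the variance, set replicate 3 of each group apart from the others, so results are also given without the 3 libraries numbered 3 where that moves them. Macrophage markers were present in every library, at a sum of 12880 to 17620 CPM (counts scaled to the TMM-adjusted size of the library) with vehicle, 20380 to 22060 CPM with rapamycin and 15610 to 17480 CPM with Torin-2. Markers of dividing cells moved with the groups: 8 of 8 fell with Torin-2 and 7 of 8 fell with rapamycin against vehicle. Their median log2 fold change was -1.82 with Torin-2 and -1.98 with rapamycin, where 1 marker rose, by 0.23. Between the compounds the median was 0.00, with values from -1.92 to 0.92. Their sum was 619.7 to 859.6 CPM with vehicle, 597 to 656 CPM with rapamycin and 208 to 217 CPM with Torin-2. Such a sum follows the most abundant markers, so it does not show the fall of most of them with rapamycin. The part of these markers in the results below was not tested. Among the markers of other cells, oligodendrocyte markers summed to 479.9 to 613 CPM with vehicle, 691 to 846 CPM with rapamycin and 366 to 423 CPM with Torin-2, with 2 of 7 under 1 CPM. The 8 fibroblast markers summed to 10.1 to 40.3 CPM with vehicle, 13.9 to 83.3 CPM with rapamycin and 3.16 to 9.79 CPM with Torin-2, and Lum was at 0 with vehicle and rapamycin. Astrocyte markers reached at most 47.0 CPM and neuron markers at most 12.0 CPM in a library.

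Among the members with promoter sequence, those with an E-box near the start site give a view of the sequence that MYC and MAX recognise. RefSeq promoter windows (GRCm38.p6, 250 bases before to 50 bases after the start) were matched for 48 of the 55 genes. They were not matched for Rrp12, Rrs1, Bop1, Fbl, Npm1, Gnl2 and Myc. The 6 windows of 30 bases below show the E-box in 1 polymerase I factor (Rrn3), 3 large subunit factors (Nop2, Pes1 and Nle1) and 2 small subunit factors (Utp18 and Ltv1), with the 6 letters of the E-box in capitals. Each is written 5′ to 3′ on the strand of its gene.
Rrn3 (chr16:13780639-13780668, + strand, 48 bases before the start): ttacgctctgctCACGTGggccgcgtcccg
Nop2 (chr6:125131811-125131840, + strand, 60 bases before the start): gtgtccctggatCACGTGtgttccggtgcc
Utp18 (chr11:93885769-93885798, - strand, 20 bases before the start): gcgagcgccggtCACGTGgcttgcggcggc
Pes1 (chr11:3963965-3963994, + strand, 3 bases after the start): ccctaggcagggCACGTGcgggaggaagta
Nle1 (chr11:82908355-82908384, - strand, 24 bases after the start): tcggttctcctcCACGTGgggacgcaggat
Ltv1 (chr10:13193092-13193121, - strand, 29 bases after the start): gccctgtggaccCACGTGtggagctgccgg
CACGTG reads the same on both strands. It was found for 11 of the 48 matched genes (22.9%): Rrn3, which has another, Mybbp1a, Utp18, Utp20, Wdr43, Tsr1, Ltv1, Pes1, Nop2, Nle1 and Mdn1. It was found for 8.09% of all 27025 genes with windows of the same length and for 12.1% of the 9235 other tested genes with windows. A gene was counted once if any of its windows held it. Counted from 100 bases before the start, the shares were 22.9%, 5.0% and 7.62%. A match describes these letters only, and no binding was measured.

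More of the ribosome biogenesis genes were lower than higher with each compound, and the group was not uniform. Against vehicle, 28 of the 55 fell with Torin-2, where 32.9% of all tested genes fell, and 8 rose, where 32.5% of all tested genes rose. In either direction 36 passed, where 65.4% of all tested genes did, and 19 did not. The test throughout was edgeR's quasi-likelihood test with Benjamini-Hochberg adjustment over all 12511 genes, at an adjusted p under 0.05. The median log2 fold change of the 55 genes was -0.24, against -0.01 for all tested genes. With rapamycin 24 fell, where 26.2% of all tested genes fell, and 7 rose, where 24.6% of all rose. In either direction 31 passed, where 50.8% of all did, and 24 did not. The median of the 55 was -0.19, against 0.00 for all tested genes. Changes of at least 2-fold were seen for 6 lower and 3 higher members with Torin-2, against 10.6% and 10.1% of all tested genes. With rapamycin there were none lower and 2 higher, against 5.15% and 3.45% of all. Between the compounds there were 1 lower and none higher, against 4.41% and 5.17% of all.

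Between the compounds themselves the members split evenly. In Torin-2 against rapamycin 12 were lower (24.1% of all tested genes were), 11 were higher (24.2% of all) and in either direction 23 passed (48.2% of all), with a median of -0.00 in the members and in all genes. In CPM, the 3 Torin-2 libraries lay wholly below the 3 vehicle libraries for 30 members and wholly above for 9, against 35.1% and 35.1% of all tested genes. The rapamycin libraries lay wholly below vehicle for 27 and wholly above for 7, against 29.7% and 27.8% of all. Torin-2 lay wholly below rapamycin for 14 and wholly above for 15, against 28.2% and 28.9% of all. The comparisons of each compound with vehicle share the same 3 vehicle libraries, so their values are given side by side. In cultures measured in bulk, fewer cells of a type and less RNA per cell cannot be told apart. With library totals in place of TMM as the scale, 32 members fell and 6 rose with rapamycin, and over all tested genes the split moved from 3273 lower and 3078 higher to 4046 lower and 2421 higher. Without the 3 libraries numbered 3 the lower and higher counts were 28 and 8 for Torin-2, where 31.9% and 31.9% of all genes tested in that fit were called. They were 21 and 8 for rapamycin, beside 25.2% and 23.9% of all, and 10 and 10 between the compounds, beside 22.7% and 23.2% of all. The plot of fold changes by role shows how members of one complex can lie on opposite sides of zero.

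**Figure D1:**
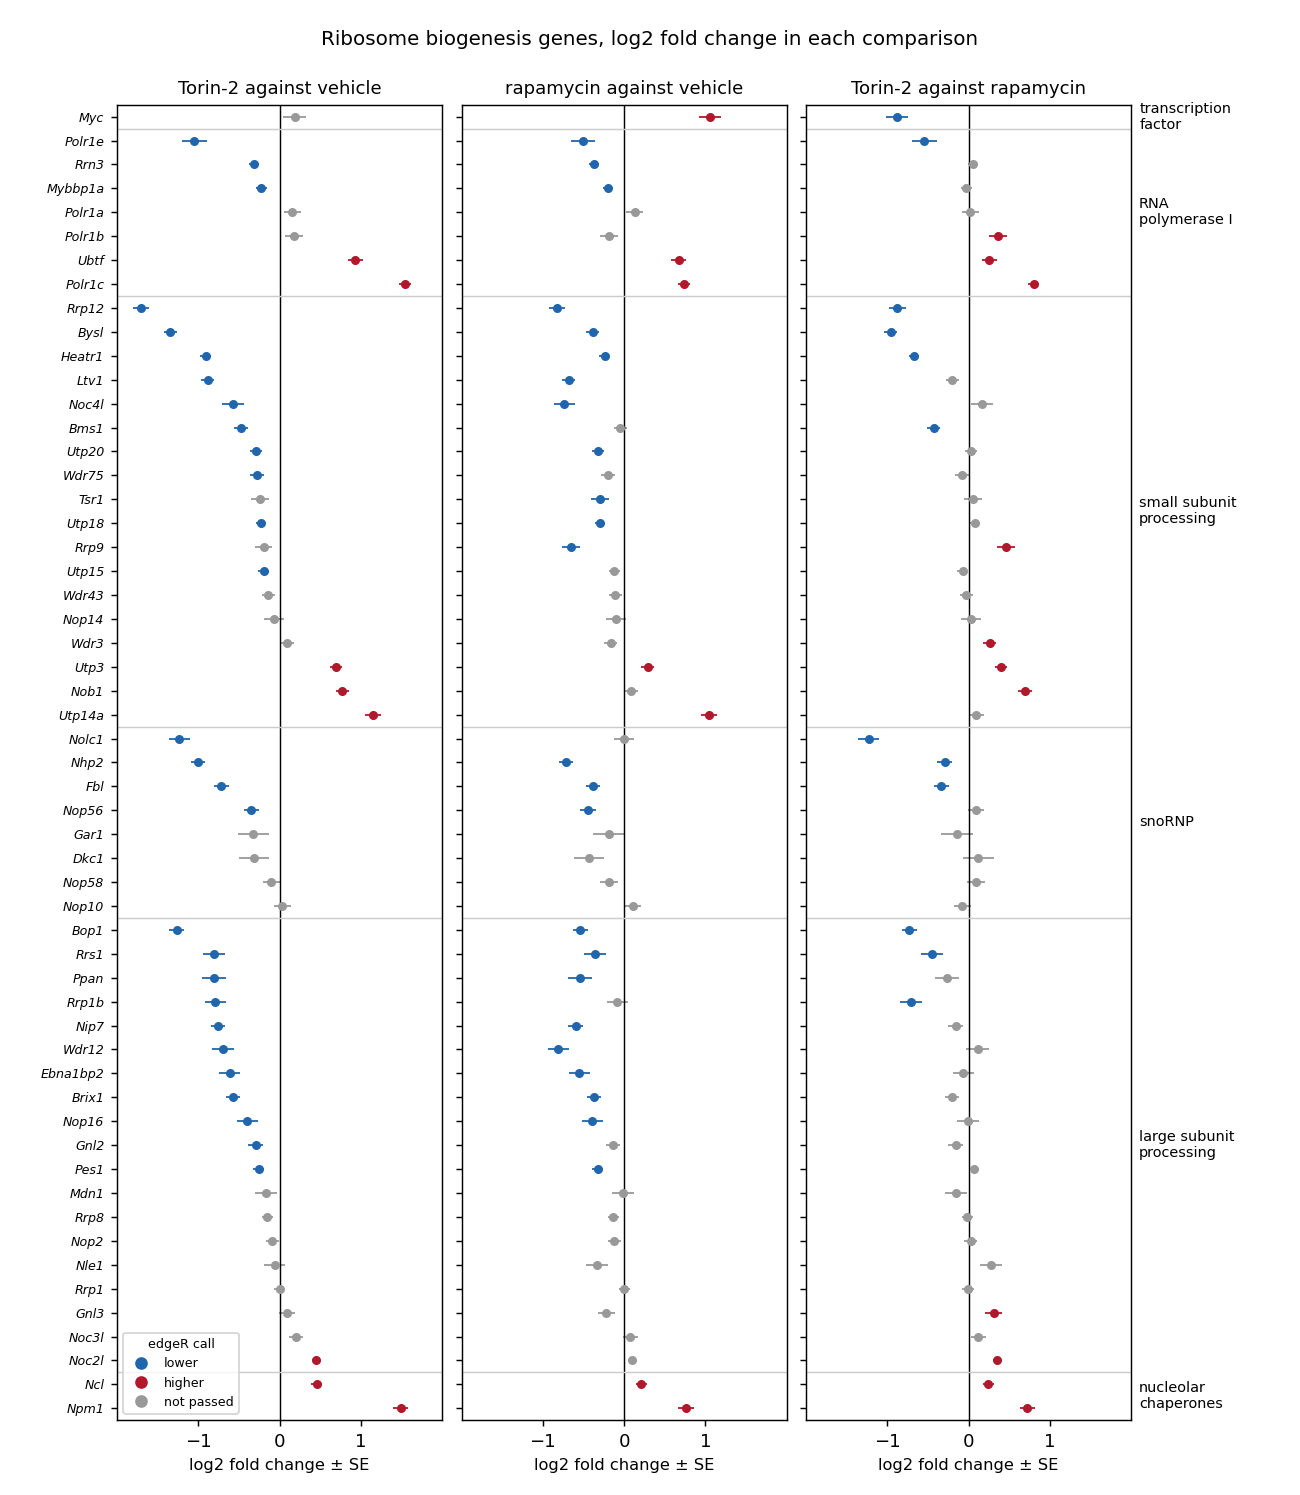
Log2 fold change with its standard error for each of the 55 genes, by role, in the 3 comparisons. Blue points fell, red points rose and grey points did not pass edgeR's test at an adjusted p under 0.05; the values span -1.70 (Rrp12) to 1.54 (Polr1c) in Torin-2 against vehicle.

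Myc, on chromosome 15 from 61985391 to 61990374 (GRCm38, GENCODE M21), encodes the transcription factor that drives many of the other genes. It was measured at 14.5, 16.9 and 14.7 CPM with vehicle, 35.9, 35 and 25.4 CPM with rapamycin and 19.7, 16.9 and 15.8 CPM with Torin-2. The 3 rapamycin libraries were above the 6 others, and the Torin-2 libraries overlapped vehicle. The log2 fold change was 1.06 ± 0.14 (SE) with rapamycin (adjusted p = 5.73e-05) and 0.19 ± 0.14 with Torin-2 (adjusted p = 0.255). Torin-2 against rapamycin gave -0.87 ± 0.13 (adjusted p = 0.000223). Of 11 tested genes of the MYC network, 7 rose and 2 fell with Torin-2 and 6 rose and 2 fell with rapamycin. Over all tested genes 32.5% rose and 32.9% fell with Torin-2, and 24.6% and 26.2% with rapamycin. The MAX partners Mxd4 and Mnt, which repress at E-boxes, rose by 1.77 and 1.40 on the log2 scale with Torin-2 and by 1.69 and 1.18 with rapamycin. Max itself differed by 0.18 with Torin-2 (adjusted p = 0.0352) and by -0.39 with rapamycin (adjusted p = 0.000711). Mlx, a MAX-like factor, fell by 0.73 and 0.47. The other gene of this list that fell with Torin-2 had a mean under 5 CPM and fell at least 2-fold. The lowest log2 fold change of the list with Torin-2 was -1.62. The spread of Myc itself was widest with rapamycin, where replicate 3 was the lowest of the 3 libraries.

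For the 11 genes with an E-box, the counts by comparison were 6 lower, none higher and 5 not passed in Torin-2 against vehicle, with a median log2 fold change of -0.22. The 37 genes with a window and no E-box had 17 lower, 7 higher and 13 not passed there, with a median of -0.20. In rapamycin against vehicle the 11 had 7 lower, none higher and 4 not passed, with a median of -0.30, beside 13, 5 and 19 and a median of -0.19 in the 37. Between the compounds none of the 11 passed in either direction, beside 7 lower and 10 higher of the 37, and the medians were 0.03 and 0.02. The members with an E-box whose windows are printed above span a fall of 0.88 with Torin-2 for Ltv1 to -0.06 for Nle1, which did not pass. Among all tested genes 32.9% were lower and 32.5% higher with Torin-2, 26.2% and 24.6% with rapamycin, and 24.1% and 24.2% between the compounds. The difference between genes with and without an E-box was not tested.

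**Figure D2:**
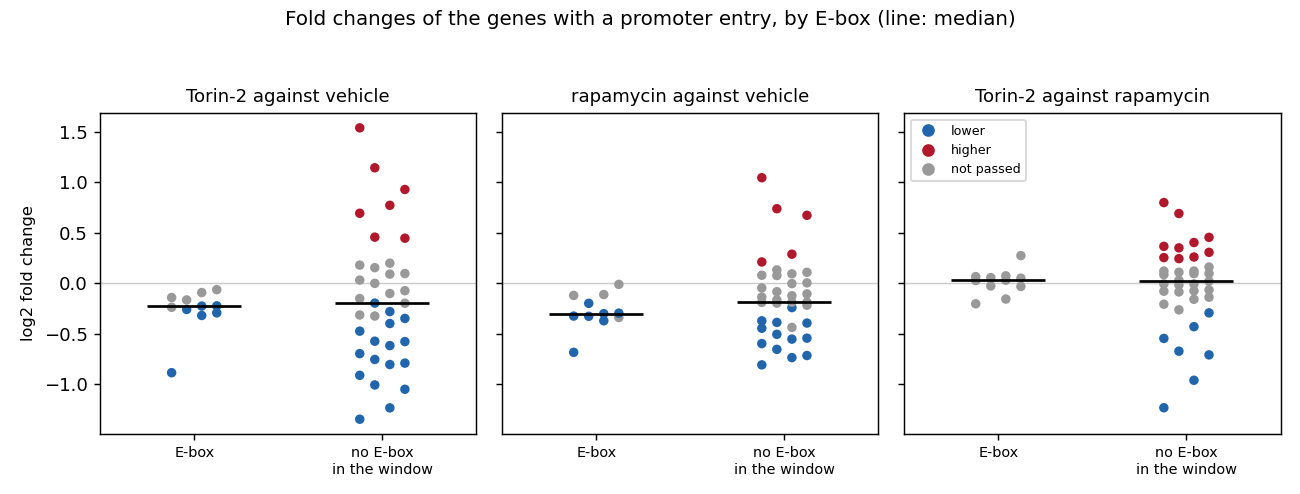
Log2 fold change of the 48 genes with a promoter window, split by whether the window holds CACGTG (11 genes with, 37 without), in each comparison; the black line is the median. In Torin-2 against vehicle the medians are -0.22 and -0.20. There none of the 11 and 7 of the 37 rose (red points), where 32.5% of all tested genes rose. The difference between the 11 and the 37 was not tested.

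Of the 7 genes of RNA polymerase I and its factors, 3 fell, 2 rose and 2 did not pass with each compound against vehicle, and neither gene of the catalytic core, Polr1a or Polr1b, passed. Over all tested genes 32.9% fell and 32.5% rose with Torin-2, and 26.2% and 24.6% with rapamycin. Polr1a, the largest subunit, was at 23.6, 27.2 and 30.5 CPM with vehicle, 29.3, 31.7 and 28.2 CPM with rapamycin and 29.2, 27.4 and 33.7 CPM with Torin-2, and all 3 groups overlapped. Its log2 fold change was 0.16 ± 0.11 with Torin-2 and 0.13 ± 0.11 with rapamycin, and neither passed (adjusted p = 0.212 and 0.317). Without the libraries numbered 3 Polr1a passed with rapamycin, at 0.27 (adjusted p = 0.0425). Polr1b, the second-largest subunit, was at 14.8, 17.7 and 15.3 CPM with vehicle, 13.5, 15.4 and 13 CPM with rapamycin and 20.1, 18.1 and 16.1 CPM with Torin-2. Torin-2 and rapamycin did not overlap each other while both overlapped vehicle. The difference of Torin-2 from rapamycin was 0.37 ± 0.11 (adjusted p = 0.0178), which was lost without rapamycin replicate 1, without rapamycin replicate 3 and without Torin-2 replicate 1 (adjusted p = 0.0574, 0.0609 and 0.0814).

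Polr1c, a subunit that RNA polymerases I and III share, rose in steps. Its levels were 22.4, 23 and 22.9 CPM with vehicle, 36.6, 35.6 and 41.7 CPM with rapamycin and 69.8, 62.5 and 66.2 CPM with Torin-2. The 3 groups were separate, with Torin-2 highest. The log2 fold change was 1.54 ± 0.07 with Torin-2 (adjusted p = 7.6e-09) and 0.74 ± 0.08 with rapamycin (adjusted p = 1.13e-05), and the difference between the compounds was 0.80 ± 0.07 (adjusted p = 4.03e-06). Polr1e, a subunit that helps the polymerase engage its promoter, moved the other way, at 6.72, 8.88 and 7.12 CPM with vehicle, 5.73, 5.40 and 4.91 CPM with rapamycin and 3.90, 3.77 and 3.33 CPM with Torin-2. Its 3 groups were separate as well, with Torin-2 lowest, although its level was the lowest of the named polymerase genes. It fell by 1.05 with Torin-2 (adjusted p = 6.39e-05) and by 0.50 with rapamycin (adjusted p = 0.0131). With rapamycin it no longer passed once vehicle replicate 2 was left out (adjusted p = 0.064), and the lower level with Torin-2 than with rapamycin (-0.54, adjusted p = 0.0123) was lost without Torin-2 replicate 3 (adjusted p = 0.0529).

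The initiation factors also split. Rrn3, the factor that makes the polymerase competent to start and a target of mTOR signalling, was at 70.3, 70.9 and 71.6 CPM with vehicle, 53.3, 52.4 and 59 CPM with rapamycin and 53, 58.4 and 59.3 CPM with Torin-2. Every library of either compound was below every vehicle library, and the compounds overlapped. The fall was 0.32 with Torin-2 (adjusted p = 0.00088) and 0.37 with rapamycin (adjusted p = 0.000532). Ubtf, which binds and opens ribosomal DNA, was at 22.4, 24.9 and 23.6 CPM with vehicle, 40.4, 40.9 and 32 CPM with rapamycin and 45.5, 45.9 and 43.8 CPM with Torin-2. The groups were separate, with vehicle lowest and Torin-2 highest, and rapamycin replicate 3 was the lowest of its group. Ubtf rose by 0.93 with Torin-2 (adjusted p = 2.97e-06) and by 0.67 with rapamycin (adjusted p = 0.000104). Torin-2 exceeded rapamycin by 0.26 (adjusted p = 0.0358), and this was lost without rapamycin replicate 3, without Torin-2 replicate 1, without Torin-2 replicate 2 and without Torin-2 replicate 3 (adjusted p = 0.108, 0.0898, 0.0979 and 0.0571), with the 2 groups alone (adjusted p = 0.0683) and without the libraries numbered 3 (adjusted p = 0.111). Mybbp1a, a nucleolar protein that restrains polymerase I, fell by 0.22 and 0.20. Its rapamycin call (adjusted p = 0.0201) was lost without rapamycin replicate 2, without rapamycin replicate 3 and without vehicle replicate 3 (adjusted p = 0.0548, 0.059 and 0.0858) and with the 2 groups alone (adjusted p = 0.0673), and without the libraries numbered 3 neither call held (adjusted p = 0.0645 with Torin-2 and 0.164 with rapamycin). The list of 10 other polymerase I and SL1 genes had 7 higher and 1 lower with Torin-2, 4 higher and none lower with rapamycin, and 6 higher and 1 lower between the compounds. Among all tested genes 32.5% were higher and 32.9% lower with Torin-2, 24.6% and 26.2% with rapamycin, and 24.2% and 24.1% between the compounds. Taf1d, an SL1 subunit whose gene holds 8 snoRNA genes, rose by 3.13 with Torin-2 and by 1.24 with rapamycin, and Taf1c rose by 0.78 and 0.49. Znrd1, a small polymerase I subunit, fell by 0.48 with Torin-2.

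The small subunit list of 18 had 10 lower, 3 higher and 5 not passed with Torin-2, and 9 lower, 2 higher and 7 not passed with rapamycin. Among all tested genes 32.9% were lower and 32.5% higher with Torin-2, and 26.2% and 24.6% with rapamycin. Rrp12, on chromosome 19 from 41862851 to 41896173, needed for export of the pre-ribosomes, had the largest fall of all 55 with Torin-2. It was at 25, 29.2 and 29.3 CPM with vehicle, 15.2, 16.7 and 15.1 CPM with rapamycin and 9.41, 7.92 and 8.30 CPM with Torin-2. The groups were separate, with Torin-2 lowest. The fold changes were -1.70 ± 0.10 with Torin-2 (adjusted p = 3.89e-08), -0.83 ± 0.10 with rapamycin (adjusted p = 2.99e-05) and -0.88 ± 0.10 between the compounds (adjusted p = 2.93e-05). Heatr1, a processome scaffold also needed for polymerase I transcription, was at 51.9, 58.5 and 54.8 CPM with vehicle, 45.1, 47.7 and 47 CPM with rapamycin and 29.1, 28.5 and 30.3 CPM with Torin-2. It too formed 3 separate groups, and it fell by 0.91 with Torin-2 and by 0.24 with rapamycin, with a difference of -0.67 between them (adjusted p = 6.47e-06).

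Bysl, a late factor in the maturation of the small subunit, was at 32.3, 34.3 and 33.6 CPM with vehicle, 26.5, 26.6 and 23.6 CPM with rapamycin and 14.2, 12.8 and 12.5 CPM with Torin-2. Every Torin-2 value was below every rapamycin value, and those were below vehicle. It fell by 1.34 and by 0.39. Bysl shares 361 exon bases with Ccnd3 on the opposite strand, which had 4410 counts beside 4416 for Bysl and fold changes of -1.34, -0.39 and -0.95 where Bysl had -1.34, -0.39 and -0.96, and the sources name no strand setting for the counting, so Bysl is uncertain. Tsr1 also shares 1240 exon bases with a gene on the opposite strand, Srr, with 3995 and 4058 counts. The fold changes of Srr were 0.26 with Torin-2, -0.07 with rapamycin and 0.33 between the compounds, unlike those of Tsr1. Whether the 2 genes shared reads was not tested. Tsr1 fell by 0.29 with rapamycin (adjusted p = 0.0449) and was -0.24 with Torin-2, which passed only with the replicate number as a block (adjusted p = 0.0127) and without Torin-2 replicate 2 (adjusted p = 0.0305). Its rapamycin call was lost without rapamycin replicate 1, without rapamycin replicate 3, without Torin-2 replicate 3, without vehicle replicate 2 and without vehicle replicate 3 (adjusted p = 0.162, 0.0893, 0.0596, 0.0929 and 0.117), with DESeq2 (adjusted p = 0.0549), with the 2 groups alone (adjusted p = 0.0565) and without the libraries numbered 3 (adjusted p = 0.176).

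Ltv1, which loads onto the late small subunit, was at 34.5, 36.9 and 32.5 CPM with vehicle, 21.6, 21.6 and 21.6 CPM with rapamycin and 20.3, 18.5 and 17.6 CPM with Torin-2. Both compounds were below vehicle in every library, by 0.88 and 0.68. The further difference of -0.20 between the compounds did not pass (adjusted p = 0.0554), but did with the replicate number as a block (adjusted p = 0.0387), without Torin-2 replicate 1 (adjusted p = 0.0344), with DESeq2's size factors (adjusted p = 0.0465) and with the 2 groups alone (adjusted p = 0.0458). Noc4l, a nuclear export factor for the small subunit, was at 15.8, 19.3 and 14.8 CPM with vehicle, 8.75, 11.7 and 9.37 CPM with rapamycin and 10.5, 11.6 and 11.4 CPM with Torin-2. It fell by 0.57 and 0.73, and the compounds overlapped. Rrp9, a protein of the U3 snoRNP, was at 16.5, 19.2 and 16.3 CPM with vehicle, 11.3, 10.4 and 11.4 CPM with rapamycin and 13.2, 15.5 and 16.6 CPM with Torin-2. The rapamycin libraries were below the 6 others, with a fold change of -0.65 ± 0.11 against vehicle (adjusted p = 0.000459), and Rrp9 was higher with Torin-2 than with rapamycin by 0.46 ± 0.11 (adjusted p = 0.00523). With Torin-2 against vehicle it was -0.20 (adjusted p = 0.13), and -0.32 without the libraries numbered 3 (adjusted p = 0.0483).

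The genes that rose in this role act at different steps. Utp14a, a processome protein that activates a helicase, was at 14.3, 15.2 and 17.9 CPM with vehicle, 31.1, 31 and 35.8 CPM with rapamycin and 36.8, 35.9 and 32.3 CPM with Torin-2. Both compounds were above vehicle in every library and overlapped each other, with rises of 1.15 ± 0.10 (adjusted p = 8.82e-07) and 1.05 ± 0.10 (adjusted p = 6.95e-06). Without the libraries numbered 3 Utp14a was also higher with Torin-2 than with rapamycin, by 0.23 (adjusted p = 0.045). Nob1, the nuclease that makes the final cut of the small subunit RNA, was at 15, 15 and 16.2 CPM with vehicle, 15.8, 16.9 and 16.2 CPM with rapamycin and 27, 28.1 and 24.1 CPM with Torin-2. Only the Torin-2 libraries stood above the rest, and the rise was 0.77 ± 0.08 against vehicle and 0.69 ± 0.08 against rapamycin (adjusted p = 3.47e-05). Utp3, a processome protein, was at 37, 37.5 and 37 CPM with vehicle, 43.3, 43.4 and 49.6 CPM with rapamycin and 61.9, 63.6 and 55.2 CPM with Torin-2. It formed 3 separate groups, with rises of 0.69 with Torin-2 and 0.29 with rapamycin.

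Among the other small subunit genes, Bms1, a GTPase of the processome, fell with Torin-2 by 0.47 and was -0.04 with rapamycin (adjusted p = 0.68). The difference between the compounds was -0.43 ± 0.08 (adjusted p = 0.00116). Utp20 fell by 0.29 and 0.32, Utp18 by 0.22 and 0.30, and the calls of Utp18 and Utp15 with Torin-2 were lost without the filter on low counts (adjusted p = 0.0592 and 0.0872). Wdr75 and Utp15, of the first processome complex to bind, fell with Torin-2 by 0.28 and 0.19. These calls were lost without Torin-2 replicate 1 (adjusted p = 0.0516) for Wdr75 and lost without Torin-2 replicate 1, without Torin-2 replicate 3, without vehicle replicate 1 and without vehicle replicate 2 (adjusted p = 0.074, 0.0795, 0.0638 and 0.0789) for Utp15. With rapamycin Utp15 was -0.12 (adjusted p = 0.163), and it passed without rapamycin replicate 3 (adjusted p = 0.0466), without the libraries numbered 3 (-0.21, adjusted p = 0.0363) and with library totals (adjusted p = 0.0221). Wdr75 was -0.19 with rapamycin (adjusted p = 0.0723), and passed without vehicle replicate 1 (adjusted p = 0.0282). Wdr3 was 0.26 ± 0.08 higher with Torin-2 than with rapamycin (adjusted p = 0.0158), a call lost without rapamycin replicate 1 and without Torin-2 replicate 2 (adjusted p = 0.0535 and 0.0742) and without the libraries numbered 3 (adjusted p = 0.0797). Wdr43 and Nop14 did not pass in any comparison.

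**Figure D3:**
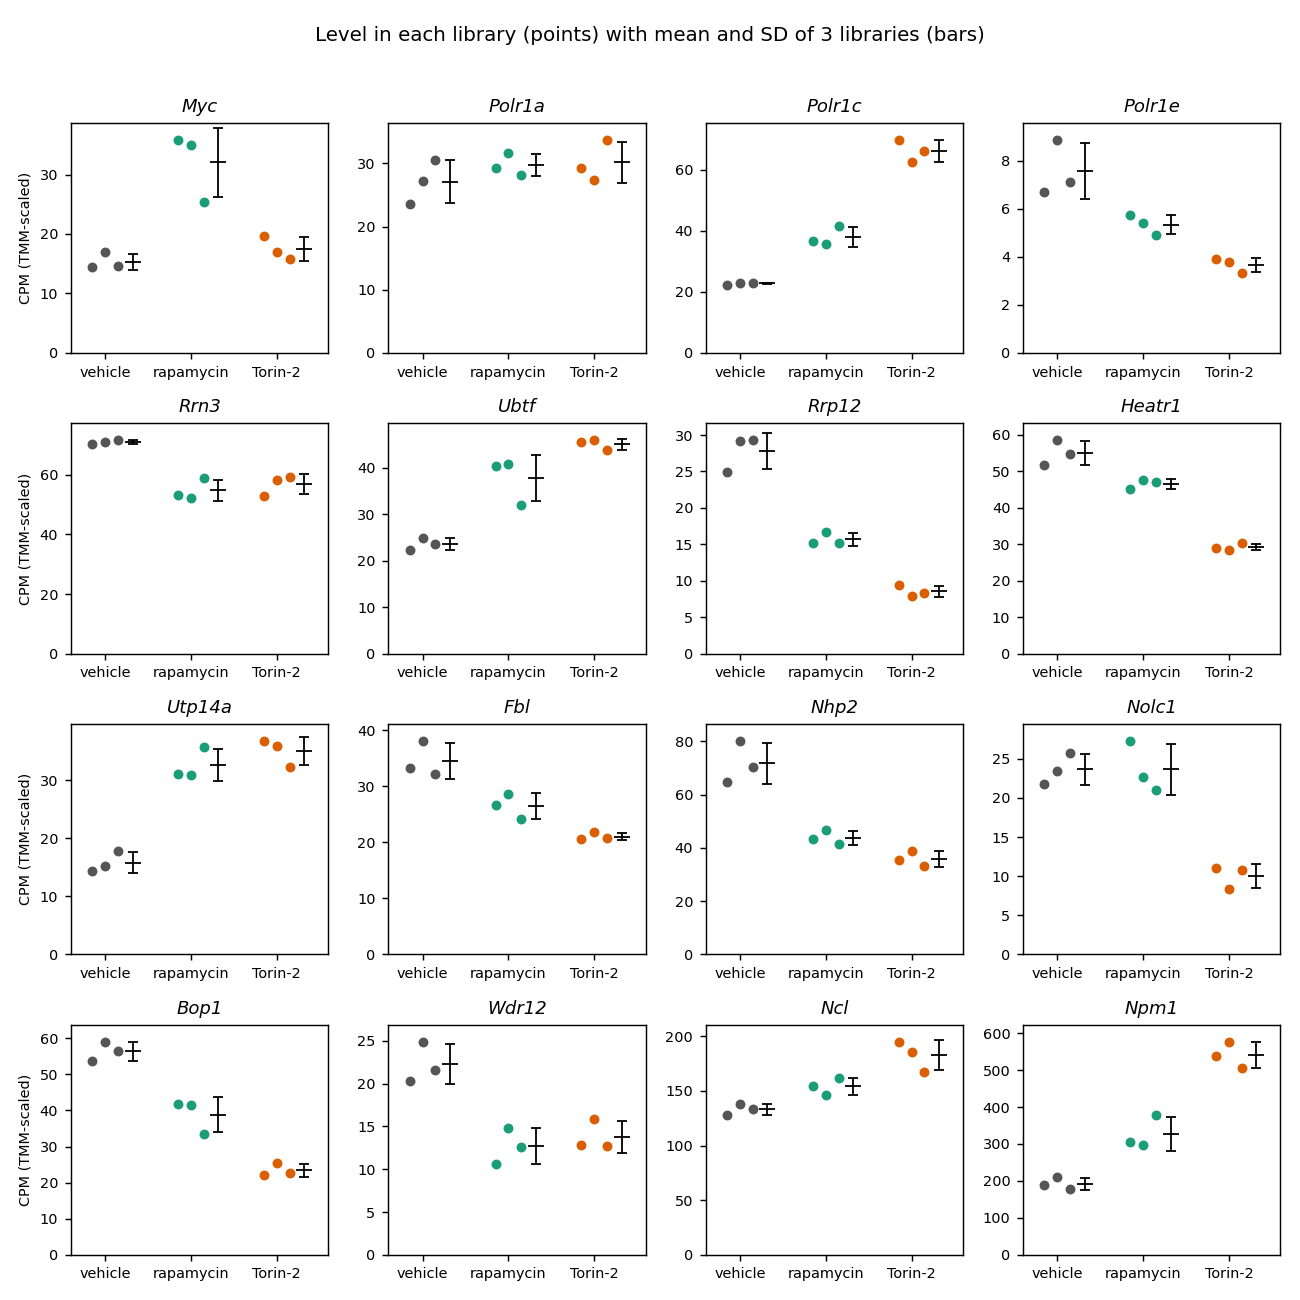
Level in each library, in TMM-scaled CPM, of 16 of the genes, with the mean and SD of the 3 libraries beside the points; each panel has its own axis from 0. Rrp12, Heatr1, Bop1 and Fbl step down from vehicle to rapamycin to Torin-2, Polr1c, Npm1 and Ubtf step up, and Myc is highest with rapamycin (25.4 to 35.9 CPM).

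Of the 8 snoRNP genes, 4 fell with Torin-2 and 3 fell with rapamycin, and none rose with either compound. Over all tested genes 32.9% fell and 32.5% rose with Torin-2, and 26.2% and 24.6% with rapamycin. Fbl, the methyltransferase of the box C/D snoRNPs, was at 33.2, 38.1 and 32.3 CPM with vehicle, 26.6, 28.7 and 24.1 CPM with rapamycin and 20.5, 21.8 and 20.7 CPM with Torin-2. The 3 groups were separate, and it fell by 0.72 with Torin-2 (adjusted p = 1.79e-05) and by 0.38 with rapamycin (adjusted p = 0.00337). Fbl shares 690 bases at 99.6% identity with a transcript of Tulp4, and the whole Tulp4 gene held 23315 counts beside 5029 for Fbl. The counting may have split reads, so Fbl is uncertain. Nop56, another box C/D core protein, was at 19.8, 25.5 and 22.6 CPM with vehicle, 17.5, 16.4 and 16 CPM with rapamycin and 17.9, 17.9 and 17.6 CPM with Torin-2. It fell by 0.35 and by 0.44, with every compound library below every vehicle library. Nop58, Nop10 and Gar1 did not pass in any comparison.

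Nhp2, a core protein of the box H/ACA snoRNPs that guide pseudouridylation, was at 64.7, 80.1 and 70.3 CPM with vehicle, 43.2, 46.5 and 41.3 CPM with rapamycin and 35.3, 38.9 and 33.1 CPM with Torin-2. The groups were separate, with falls of 1.01 and 0.71. The lower level with Torin-2 than with rapamycin (-0.29, adjusted p = 0.0191) was lost without rapamycin replicate 2, without Torin-2 replicate 1 and without Torin-2 replicate 3 (adjusted p = 0.074, 0.0559 and 0.0796), and was also lost with library totals as the scale (adjusted p = 0.0768) and without the libraries numbered 3 (adjusted p = 0.0509). Dkc1, the pseudouridine synthase of the same particles, was at 7.28, 10.5 and 7.70 CPM with vehicle, 6.24, 7.72 and 4.81 CPM with rapamycin and 7.33, 6.59 and 6.58 CPM with Torin-2. Its groups overlapped and it did not pass against vehicle, but with rapamycin it passed with the replicate number as a block (adjusted p = 0.026), with library totals (adjusted p = 0.0348), without the filter (adjusted p = 0.0272) and without rapamycin replicate 2 (adjusted p = 0.0208). Nolc1, the chaperone that carries snoRNPs to the nucleolus, was at 21.8, 23.4 and 25.8 CPM with vehicle, 27.3, 22.7 and 21 CPM with rapamycin and 11, 8.29 and 10.8 CPM with Torin-2. Rapamycin overlapped vehicle, with a fold change of -0.00 ± 0.12 (adjusted p = 0.994), and the Torin-2 libraries were below all 6 others. The fall with Torin-2 was 1.23 against vehicle (adjusted p = 4.78e-06) and 1.23 against rapamycin (adjusted p = 1.38e-05), which was the largest fall of any member between the compounds.

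The large subunit list of 19 had 11 lower, 1 higher and 7 not passed with Torin-2, and 9 lower, none higher and 10 not passed with rapamycin. Among all tested genes 32.9% were lower and 32.5% higher with Torin-2, and 26.2% and 24.6% with rapamycin. The 3 proteins of the PeBoW complex, which processes the large subunit precursor, had unequal changes. Bop1 was at 53.6, 59.1 and 56.3 CPM with vehicle, 41.8, 41.4 and 33.3 CPM with rapamycin and 22.2, 25.6 and 22.6 CPM with Torin-2. Its groups were separate, with falls of 1.26 with Torin-2 (adjusted p = 2.57e-07) and 0.54 with rapamycin (adjusted p = 0.000472), and a difference of -0.73 between them (adjusted p = 6.66e-05). Wdr12 was at 20.3, 24.9 and 21.6 CPM with vehicle, 10.6, 14.8 and 12.6 CPM with rapamycin and 12.8, 15.9 and 12.7 CPM with Torin-2. It fell by 0.70 and 0.81, and the compounds overlapped. Sequence of Wdr12 also matches other genes, among them 1276 bases of a Pms1 transcript at 93.9% identity, and the whole Pms1 gene held 736 counts beside 3012 for Wdr12. Pes1 was at 91.2, 102 and 106 CPM with vehicle, 77.8, 78.9 and 82.6 CPM with rapamycin and 84.5, 81.6 and 84.7 CPM with Torin-2. Both compounds were below vehicle in every library, but the falls were 0.26 and 0.33.

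Mdn1, the large ATPase that removes factors from the pre-large subunit, was at 9.72, 9.71 and 13.4 CPM with vehicle, 11.7, 10.7 and 10.4 CPM with rapamycin and 8.82, 10.6 and 9.90 CPM with Torin-2. All groups overlapped and no comparison passed. Rrs1, which helps to place the 5S particle, and Ppan, a factor of the early large subunit, fell by 0.81 and 0.80 with Torin-2 and by 0.36 and 0.54 with rapamycin. The rapamycin call of Rrs1 (adjusted p = 0.0432) was lost without rapamycin replicate 1, without rapamycin replicate 3, without Torin-2 replicate 1, without vehicle replicate 2 and without vehicle replicate 3 (adjusted p = 0.137, 0.115, 0.0597, 0.137 and 0.0866). Its lower level with Torin-2 than with rapamycin (-0.45) was lost without rapamycin replicate 2, without Torin-2 replicate 1 and without Torin-2 replicate 3 (adjusted p = 0.0855, 0.0611 and 0.0854). Without the libraries numbered 3 these Rrs1 calls and the rapamycin calls of Ppan and Nop16 were lost (adjusted p = 0.127 and 0.0708 for Rrs1, 0.0621 for Ppan and 0.0627 for Nop16).

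The remaining large subunit genes gave the following. Nip7, Ebna1bp2 and Brix1 fell with both compounds, by 0.75, 0.62 and 0.58 with Torin-2 and by 0.60, 0.55 and 0.37 with rapamycin. Torin-2 differed from rapamycin by -0.21 for Brix1, which passed only with the replicate number as a block (adjusted p = 0.0246). Rrp1b, a nucleolar protein, fell with Torin-2 by 0.79 and was -0.08 with rapamycin (adjusted p = 0.62), a difference of -0.71 ± 0.13 (adjusted p = 0.00087). Nop16 fell by 0.40 and 0.39, in calls lost without Torin-2 replicate 1, without Torin-2 replicate 3 and without vehicle replicate 2 (adjusted p = 0.0698, 0.0656 and 0.0663) with Torin-2 and lost without rapamycin replicate 1, without rapamycin replicate 3 and without vehicle replicate 2 (adjusted p = 0.0726, 0.0884 and 0.0924) with rapamycin. Gnl2, a GTPase, fell with Torin-2 by 0.29, a call lost without Torin-2 replicate 1 and without vehicle replicate 3 (adjusted p = 0.0599 and 0.0637). Noc2l rose by 0.45 with Torin-2 and was 0.10 with rapamycin (adjusted p = 0.144). Gnl3, also called nucleostemin, was 0.31 higher with Torin-2 than with rapamycin, a call lost without rapamycin replicate 1, without Torin-2 replicate 1, without Torin-2 replicate 2 and without Torin-2 replicate 3 (adjusted p = 0.0866, 0.0528, 0.0613 and 0.0633), and it was -0.22 with rapamycin against vehicle, which passed with the block (adjusted p = 0.0446), with library totals (adjusted p = 0.0256) and without rapamycin replicate 2 (adjusted p = 0.0464). Nle1 was -0.34 with rapamycin (adjusted p = 0.0576). It passed with the block (adjusted p = 0.04997), with library totals (adjusted p = 0.0234), without vehicle replicate 3 (-0.44, adjusted p = 0.0198) and without the libraries numbered 3 (-0.43, adjusted p = 0.0479). Rrp1, Rrp8, Nop2 and Noc3l did not pass in any comparison.

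The 2 chaperones rose in every comparison. Ncl, nucleolin, was at 128, 138 and 134 CPM with vehicle, 155, 146 and 162 CPM with rapamycin and 195, 186 and 168 CPM with Torin-2. Its 3 groups were separate, with Torin-2 highest. It rose by 0.46 with Torin-2 (adjusted p = 6.46e-05) and by 0.21 with rapamycin (adjusted p = 0.0182), and the rapamycin call was lost without rapamycin replicate 3 and without vehicle replicate 1 (adjusted p = 0.0598 and 0.0814), and was lost with library totals as the scale (adjusted p = 0.172). The difference of 0.25 between the compounds (adjusted p = 0.00884) was lost without Torin-2 replicate 1 (adjusted p = 0.0503). Npm1, nucleophosmin, was at 189, 210.4 and 178 CPM with vehicle, 307, 296 and 378 CPM with rapamycin and 537, 577 and 506 CPM with Torin-2. The groups did not overlap, and each rose above the one before it in the order vehicle, rapamycin and Torin-2. The fold changes were 1.49 ± 0.10 with Torin-2 (adjusted p = 8.12e-08), 0.77 ± 0.10 with rapamycin (adjusted p = 4.97e-05) and 0.72 ± 0.10 between the compounds (adjusted p = 6.84e-05). Npm1 has 8 processed pseudogenes that match 420 to 879 of its bases at 91.5% to 97.4% identity, and together they held 786 counts beside 64231 for Npm1.

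The 2 chaperones made up a large share of the group's counts. All 55 genes together summed to 1963 to 2147 CPM with vehicle, 2003 to 2074 CPM with rapamycin and 2209 to 2326 CPM with Torin-2. Without Ncl and Npm1 the sums were 1646 to 1799 CPM with vehicle, 1534 to 1579 CPM with rapamycin and 1535 to 1563 CPM with Torin-2, with vehicle then highest; these sums were chosen after the values were seen and carry no test. Per length of exon, Npm1 had the highest level of the 55 in each group, with a mean CPM per kilobase of 72.2, 123 and 203 in vehicle, rapamycin and Torin-2, and Mdn1 the lowest, with 0.502, 0.499 and 0.447. Short overlaps with a gene on the opposite strand leave others uncertain where reads fall in them: Heatr1 shares 155 exon bases with Lgals8 (18497 counts beside 8020), Bop1 shares 50 with Mroh1 (34868 beside 7275), Rrp8 shares 355 with Ilk (32975 beside 4555) and Dkc1 shares 45 with Mpp1 (44132 beside 1323). Shorter or less covered overlaps of this kind were 61 bases for Wdr12 with Carf (892 counts beside 3012), 44 for Nhp2 with Rmnd5b (4513 beside 9295), 27 for Wdr3 with Gdap2 (4013 beside 4624), 20 for Rrp9 with Parp3 (2414 beside 2683), 15 for Gnl3 with Pbrm1 (12333 beside 4958) and 5 for Nop56 with Idh3b (24168 beside 3494). Of the 55, 8 hold snoRNA genes (Dkc1, Gnl3, Ncl, Nop56, Nop58, Ppan, Tsr1 and Wdr43), and of these 2 fell and 1 rose with Torin-2, beside 72 that fell and 106 that rose of the 234 other tested genes with a snoRNA inside. With rapamycin 3 of the 8 fell and 1 rose, beside 60 and 89 of the 234. Over all tested genes 32.9% fell and 32.5% rose with Torin-2, and 26.2% and 24.6% with rapamycin.

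Beyond the 55, genes of the same pathway that were not members were also mixed. Of all tested genes 32.9% fell and 32.5% rose with Torin-2, 26.2% and 24.6% with rapamycin, and 24.1% and 24.2% between the compounds. The 140 tested genes of all pathway lists outside the 55 had 32.1% lower and 32.9% higher with Torin-2, close to those shares. They had 32.1% and 17.1% with rapamycin, and 20.0% and 33.6% between the compounds. Of 35 other small subunit factors, 15 fell and 7 rose with Torin-2, 17 fell and 2 rose with rapamycin, and 9 fell and 12 rose between the compounds. Pno1 and Bud23, of the late small subunit, fell by 1.28 and 1.05 with Torin-2, while Imp3 rose by 0.93 and by 0.58 with rapamycin. Of 42 other large subunit factors, 16 fell and 14 rose with Torin-2, 13 fell and 6 rose with rapamycin, and 11 fell and 12 rose between the compounds. The Torin-2 shares of this list, 38.1% and 33.3%, were near those of all tested genes. Rpf2 and Eif6 fell by 1.00 and 0.81 with Torin-2, and Sbds, which releases EIF6 from the large subunit, rose by 1.57 with Torin-2 and exceeded rapamycin by 1.52. Of 13 RNA exosome genes, 7 fell and none rose with either compound, led by Mphosph6, which fell by 1.63 and 0.86. The bar plot of shares sets these lists beside all tested genes.

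**Figure D4:**
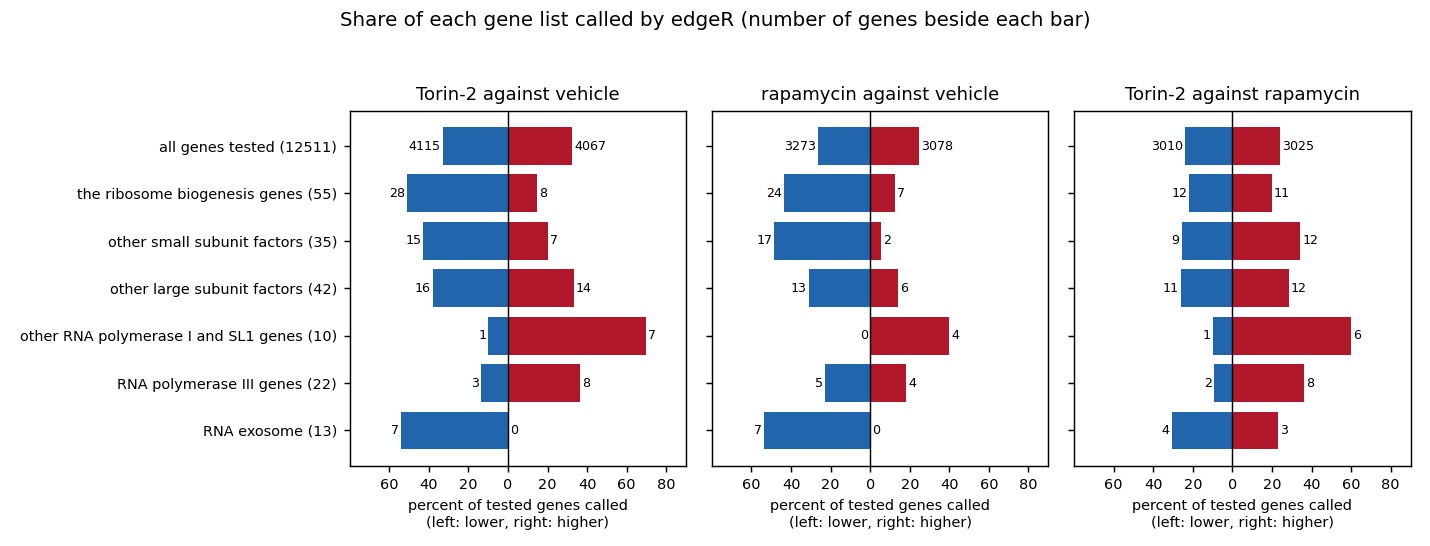
Share of the tested genes in each list that fell (left) or rose (right) by edgeR's test in each comparison, with the number of genes beside each bar and the number tested in parentheses. The 55 genes fell more often than they rose in Torin-2 and in rapamycin against vehicle (28 and 8, 24 and 7), and the RNA exosome list had 7 lower and none higher in both. Among all tested genes 32.9% were lower and 32.5% higher with Torin-2, and 26.2% and 24.6% with rapamycin.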

How the data were processed

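Messenger RNA was sequenced from 9 macrophage cultures, 3 per group. Per the labels' protocols, NuGEN Universal Plus mRNA-seq libraries were read as 100 bp paired ends. The authors deposited raw counts per gene and library; per the submitters' processing notes, bcl2fastq, FastQC and STAR 2.5.2a were used with the mm10 and GRCm38.p6 builds. For the counting, the tool, strand setting and annotation are not stated by those notes or the labels. GENCODE M21 held 53237 of the table's 53342 identifiers.

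From those counts, genes were filtered with filterByExpr, scaled with TMM and tested with edgeR 4.0.16 (R 4.3.3) by glmQLFit and glmQLFTest over all 9 libraries in 3 groups, 2-sided, with Benjamini-Hochberg adjustment over 12511 genes. The common biological coefficient of variation was 9.96%. CPM values use TMM-scaled totals. DESeq2 1.42.0, other scales, no filter, the 2 groups alone, a replicate block and libraries left out were alternatives. edgeR was also run on simulated counts in which most genes did not change, unlike these data, so that run is no check of the calls.

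Same-numbered libraries deviated together from their group means (9 pairs, correlations 0.168 to 0.50, beside 18 other pairs, -0.358 to 0.162). Pairs of replicate 3 stood highest, at 0.364 to 0.50, and the other same-numbered pairs were at 0.168 to 0.322. The numbers are the labels' replicate numbers. The main test and its adjusted p values did not pair the libraries, and the fit with the replicate number as a block was an alternative. Members and gene lists were chosen with earlier results of these data known. Per-library values are given for the 5 members with the largest fall and the 5 with the largest rise in each comparison (mean of at least 5 CPM) and for members fixed by role.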

Additional observations from a re-analysis of the deposited data

How the results depend on the processing

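No fold change of a member turned its sign in a call under any alternative run. With a further requirement of at least 1.5-fold, the lower members numbered 15 in Torin-2 against vehicle (beside 20.5% of all tested genes), 7 in rapamycin against vehicle (beside 11.6% of all) and 7 in Torin-2 against rapamycin (beside 10.3% of all), and the higher members numbered 3 in Torin-2 against rapamycin (beside 11.6% of all); the requirement itself lowers these counts. With 1 library left out at a time, the higher members in Torin-2 against rapamycin numbered 7 to 11, with 7 without Torin-2 replicate 1, and the lower members numbered 24 to 29 in Torin-2 against vehicle, 20 to 25 in rapamycin against vehicle and 9 to 12 in Torin-2 against rapamycin. In those fits 20.3% to 24.3% of all genes were higher in Torin-2 against rapamycin. The shares of all genes that were lower were 29.7% to 33.1%, 22.3% to 25.3% and 20.3% to 24.2% in the same order.

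With the replicate number as a block, 29 members were lower and 8 higher in Torin-2 against vehicle (beside 34.8% and 34.8% of all genes in that fit), 27 and 7 in rapamycin against vehicle (beside 28.3% and 27.7% of all), and 14 and 11 in Torin-2 against rapamycin (beside 27.6% and 27.0% of all). The block added the calls of Tsr1, Dkc1, Gnl3, Nle1, Ltv1 and Brix1 given above and changed no other call of a member. Library totals added 8 calls with rapamycin against vehicle, Utp15, Wdr75, Wdr3, Dkc1, Rrp8, Gnl3, Gnl2 and Nle1, and 1 with Torin-2, Rrp8. Counts with 3 libraries a group limit what small differences can be told, and a member that did not pass is not shown to be unchanged.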

Other observations

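RNA polymerase III genes, whose products include the 5S ribosomal RNA, were also mixed. Of 22 tested, 8 rose and 3 fell with Torin-2, 4 rose and 5 fell with rapamycin, and 8 rose and 2 fell in Torin-2 against rapamycin. Over all tested genes 32.5% rose and 32.9% fell with Torin-2, 24.6% and 26.2% with rapamycin, and 24.2% and 24.1% between the compounds. Polr3b, the second-largest subunit, rose by 1.14 on the log2 scale with Torin-2, and Polr3k, a small subunit, fell by 1.16 with Torin-2 and by 0.52 with rapamycin. Of 7 helicases of the small subunit, 3 rose and 1 fell with Torin-2, and 2 rose and 1 fell with rapamycin. Ddx52 rose by 1.00 with Torin-2 and by 0.41 with rapamycin.

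A run of pyrimidines beginning with C at the first base, the mark of messages whose translation mTOR controls, was found at the exact RefSeq start of 1 of the 48 members, Utp3 (2.08%, beside 3.01% of the 9235 other tested genes). Within 5 bases of the start it was found in 13 (27.1%, beside 24.0%).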
